A study of Mus musculus with 6 samples.

Results

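The chemokine ligands and receptors of MASH diet-fed mouse liver were compared between livers carrying the WT label and those carrying the *Themis*-KO label. Members were the rows of the count table whose gene symbol was *Ccl*, *Cxcl*, *Cx3cl* or *Xcl* (ligands) or *Ccr*, *Cxcr*, *Cx3cr* or *Xcr* (receptors) followed by a number and at most 1 letter, together with *Pf4* and *Ppbp*, which encode CXC chemokines under older names. This rule matched 61 of the 25403 listed genes, and the 50 rows with 10 or more counts summed over the 6 livers, 34 of ligands and 16 of receptors, are reported. Of these, 34 passed the filter on low counts and were tested, 24 ligands and 10 receptors. The other 16 were too low to test and are given by their counts, and 11 matched rows had fewer than 10 counts. A gene could pass the filter through the counts of 1 group alone.

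Chemokines are small secreted or membrane-anchored proteins named for the spacing of cysteines near their N terminus, and they guide leukocytes through G protein-coupled receptors. In liver, CCL2 and its receptor CCR2 recruit monocytes, CXCL1, CXCL2 and CXCL5 attract neutrophils through CXCR2, and CXCL9 and CXCL10 attract T cells through CXCR3. CXCL12, made by stromal, endothelial and parenchymal cells, retains cells that carry CXCR4.

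Bulk RNA-seq was performed on 3 livers labelled WT, from wild-type C57BL6/J mice, and 3 labelled *Themis*-KO, from mice lacking *Themis* in the whole body. Feeding of the MASH diet, in which fat gave 40% and fructose 20% of energy and cholesterol made up 2%, began at an age of 10 to 12 weeks in both groups and lasted 3 months, and no chow-fed liver is compared here. The strain background of the *Themis*-KO mice is not given in the sources used here. The comparison asks how livers of the WT and *Themis*-KO labels differ on this diet. A difference present before the diet cannot be told from a changed response to it. Whole-body loss removes *Themis* from T cells as well as hepatocytes, and in whole liver RNA more cells of a type and more RNA per cell cannot be told apart. Values are TMM-normalized counts scaled to a fixed library size (CPM). A gene was called when the quasi-likelihood test of edgeR, adjusted after Benjamini and Hochberg across 14496 tested genes, gave an adjusted p under 0.05. Replicates are listed in the order 1, 2 and 3.

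The libraries held between 20679642 and 25649767 counts, and the members took between 7765 and 11252 of them. *Themis* itself did not separate the labels, with a CPM of 8.07, 25.6 and 12.0 in livers labelled WT and 8.63, 7.74 and 9.97 in livers labelled *Themis*-KO, so every direction below rests on the labels. The labels give no batch. WT replicates 1 and 2 stood apart from the other 4 livers in the share of *Gm28438* in the summed counts of *Gm28438* and *mt-Nd3*, which was 96.6% and 96.8% against 2.20% to 3.26%. The hepatocyte genes *Alb* and *Apoa1* were abundant in every liver, which matches the labelled tissue.

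Among the 7 members called higher with the *Themis*-KO label were the receptors *Ccr2*, *Cx3cr1* and *Cxcr4* and the ligands *Cxcl14*, *Pf4* and *Ccl6*, and the only member called lower was *Cxcl12*. These are 7 of the 34 tested members, against 4.97% of all tested genes called higher, and 1 of 34 against 4.14% called lower, or 8 of 34 against 9.11% in either direction. Of 12 macrophage markers 6 were called higher in the same livers, with a summed level of 422 to 641 CPM in livers labelled WT against 719 to 961 CPM in livers labelled *Themis*-KO, and their part in these calls was not tested. With a change of at least 2-fold as well, 5 members were called higher, *Cxcl14*, *Pf4*, *Ccl6*, *Ccr2* and *Cx3cr1*, against 1.86% of all tested genes, and none of the 34 lower, against 1.12%. The log2 fold change was positive in 28 of the 34, against 51% of all tested genes, with a median of 0.78 against 0.0095. In 11 members every liver labelled *Themis*-KO lay above every liver labelled WT, against 17.7% of all tested genes, and in 3 every such liver lay below, against 16.9%. Before adjustment, 17 members were higher and 2 lower with p under 0.05, against 16.8% and 13.9%.

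These calls depended on single livers. When replicate 1 or replicate 2 of either label was left out, edgeR called 0 members in either direction. Over the whole table, these fits called only 8 to 27 genes higher and 12 to 57 lower. At an unadjusted p under 0.05, 13 members were then higher and 1 lower without WT replicate 1, 11 and 3 without WT replicate 2, 11 and 2 without *Themis*-KO replicate 1, and 14 and 2 without *Themis*-KO replicate 2. Without WT replicate 3, 6 members were called higher, with *Cxcl16* among them and *Ccr2* not, and 0 lower, and without *Themis*-KO replicate 3, 16 higher and 2 lower. The split by *Gm28438* puts WT replicates 1 and 2 against the other livers, and in these 2 livers label and split cannot be told apart. With it as a covariate, the label effect rests on WT replicate 3 alone against the 3 livers labelled *Themis*-KO. Calls from that fit are therefore not counted. Its log2 fold change was positive in 26 of the 34 members, with a median of 0.60 against 0.020 for all tested genes. Scaling by total counts alone moved the median log2 fold change of all tested genes from 0.0095 to 0.147 and gave 9 members higher and 0 lower, and 1449 genes higher and 387 lower over the whole table in place of 721 and 600. The sign of the log2 fold change was the same in all 6 leave-one-out fits for each of the 8 called members.

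**Figure D1:**
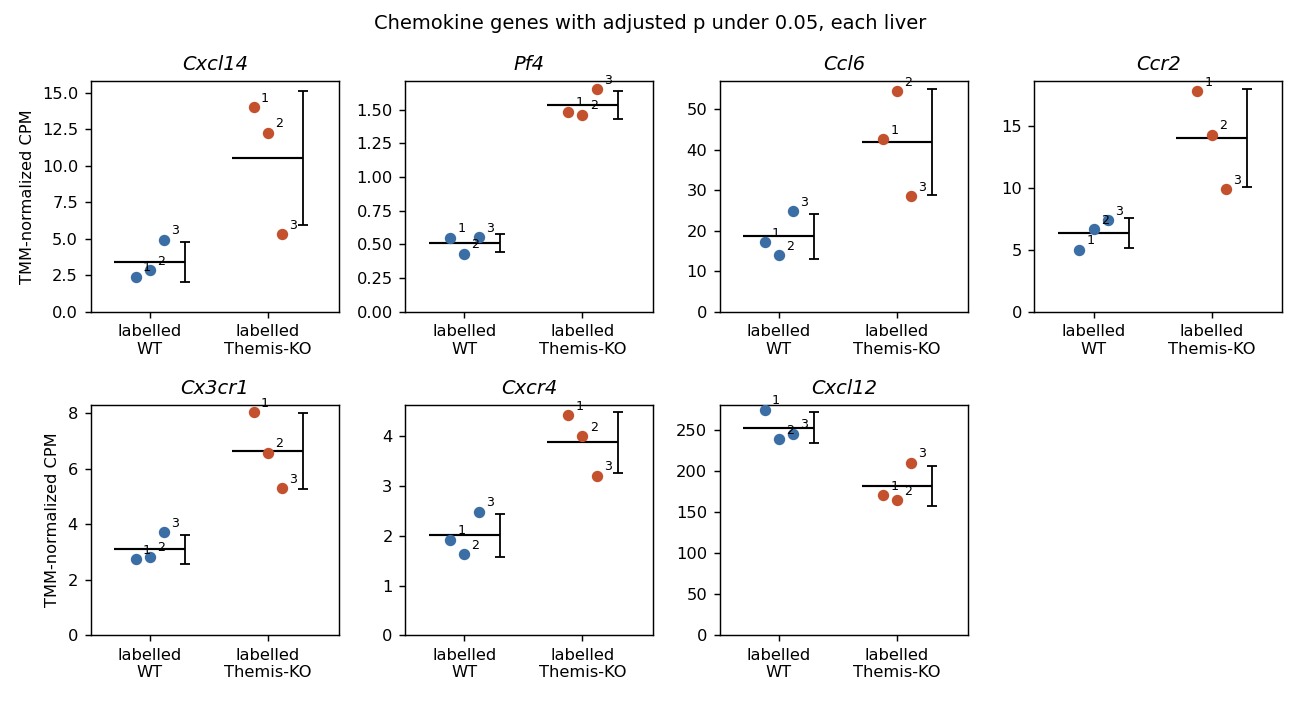
TMM-normalized CPM (y axis, from 0) of 7 called members in each liver, with the replicate number beside each point, blue for livers labelled WT and red for livers labelled *Themis*-KO; the black line is the mean of 3 livers and the bar its SD. The groups do not overlap in any of the 7 panels, and *Themis*-KO replicate 3 is the liver of its group nearest to the WT range for all but *Pf4*.

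**Figure D2:**
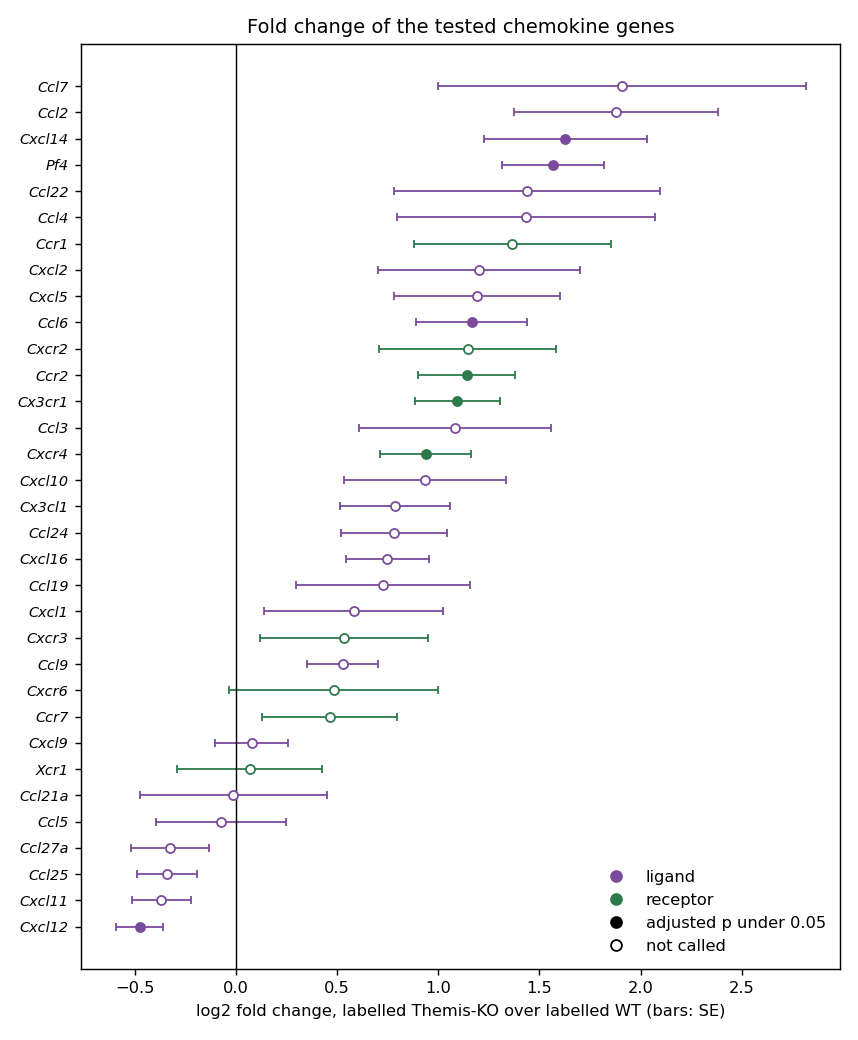
Log2 fold change (x axis, livers labelled *Themis*-KO over livers labelled WT) with its SE for 33 tested members, sorted by size; purple marks ligands, green receptors, and filled points an adjusted p under 0.05. All 9 receptors shown and 18 of the 24 ligands lie to the right of 0, from −0.48 for *Cxcl12* to 1.91 for *Ccl7*.

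All 10 tested receptors had a positive log2 fold change, with a median of 0.85, and 4 were called. *Ccr2*, the receptor that brings monocytes out of the bone marrow and into tissue, had a CPM of 5.0, 6.67 and 7.42 in livers labelled WT and 17.8, 14.3 and 9.92 in livers labelled *Themis*-KO. The groups did not overlap, and *Themis*-KO replicate 3 was the nearest of its group to WT. *Ccr2* rose, with a log2 fold change of 1.14 (adjusted p = 0.0345, SE 0.24). *Cx3cr1*, the fractalkine receptor of patrolling monocytes and tissue macrophages, had a CPM of 2.75, 2.83 and 3.71 in livers labelled WT and 8.03, 6.58 and 5.29 in livers labelled *Themis*-KO. It rose by a similar amount, with a log2 fold change of 1.09 (adjusted p = 0.0300, SE 0.21), again with every liver labelled *Themis*-KO above every liver labelled WT.

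*Cxcr4*, the CXCL12 receptor found on most leukocytes, had a CPM of 1.93, 1.63 and 2.49 in livers labelled WT and 4.42, 4.0 and 3.21 in livers labelled *Themis*-KO. It rose, with a log2 fold change of 0.94 (adjusted p = 0.0429, SE 0.22), while the transcript of its ligand was lower. *Ccr1*, a receptor for CCL3, CCL5, CCL6 and CCL9, had a CPM of 1.06, 0.720 and 0.829 in livers labelled WT and 3.57, 2.28 and 0.850 in livers labelled *Themis*-KO. *Themis*-KO replicates 1 and 2 were above the WT range and replicate 3 was within it, so the groups overlapped and the log2 fold change of 1.37 (adjusted p = 0.109, SE 0.49) was not called. *Cxcr2*, the neutrophil receptor, also had *Themis*-KO replicate 3 within the WT range. It had a CPM of 0.642, 0.432 and 0.908 in livers labelled WT and 2.21, 1.42 and 0.803 in livers labelled *Themis*-KO, with a log2 fold change of 1.14 (adjusted p = 0.125, SE 0.44).

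The lymphocyte and dendritic cell receptors were low. *Ccr7*, which leads dendritic cells and T cells to lymph nodes, *Cxcr3* and *Cxcr6*, both of activated T cells, and *Xcr1*, of cross-presenting dendritic cells, lay between 0.192 and 1.06 CPM in every liver. Their log2 fold changes were 0.46, 0.53, 0.48 and 0.067, with adjusted p of 0.377, 0.411, 0.552 and 0.913, and in each of the 4 the groups overlapped. The 95% interval of the *Xcr1* change ran from −0.76 to 0.90 on the log2 scale. The other 6 reported receptors had too few counts to test. *Ccr9* had 59 counts over the 6 livers, *Ccr10* 52, *Cxcr5* 47, *Ccr3* 27, *Cxcr1* 16 and *Ccr6* 10, and the groups overlapped in all of them. *Ccr4* had 7 counts and *Ccr8* 2.

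The monocyte-attracting ligands of CCR2 had the largest log2 fold changes of the family, neither of them called, and only *Themis*-KO replicates 1 and 2 lay above the WT range. *Ccl2*, which encodes the monocyte chemoattractant protein MCP-1, had a CPM of 2.2, 2.11 and 4.18 in livers labelled WT and 15.1, 12.6 and 3.78 in livers labelled *Themis*-KO. *Themis*-KO replicate 3 lay below WT replicate 3, and the log2 fold change of 1.88 (adjusted p = 0.0564, SE 0.50) just missed the threshold. *Ccl7*, a neighbour of *Ccl2* with a similar role, had a CPM of 0.596, 0.480 and 1.1 in livers labelled WT and 4.63, 3.57 and 0.0945 in livers labelled *Themis*-KO. Here *Themis*-KO replicate 3 was the lowest of all 6 livers, with 2 counts, with a log2 fold change of 1.91 (adjusted p = 0.197, SE 0.91). Without that liver both genes were called, with log2 fold changes of 2.25 and 2.44. *Ccl12*, another CCR2 ligand of mice, had 9 counts in all and *Ccl8* had 7.

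*Ccl5*, *Ccl9*, *Ccl6*, *Ccl3* and *Ccl4* lie side by side on chromosome 11, and *Ccl6* and *Ccl9*, ligands of CCR1 made by mouse macrophages, had the highest levels among them. *Ccl6* had a CPM of 17.2, 14.0 and 24.8 in livers labelled WT and 42.6, 54.5 and 28.5 in livers labelled *Themis*-KO. The groups did not overlap, and *Ccl6* rose, with a log2 fold change of 1.16 (adjusted p = 0.0418, SE 0.27). *Ccl9* had a CPM of 22.5, 23.2 and 32.3 in livers labelled WT and 35.8, 44.7 and 31.9 in livers labelled *Themis*-KO. WT replicate 3 lay just above *Themis*-KO replicate 3, and the log2 fold change of 0.53 (adjusted p = 0.0924, SE 0.18) was not called. *Ccl3* and *Ccl4*, inducible ligands of activated macrophages, reached at most 1.03 and 2.24 CPM in any liver. Their log2 fold changes were 1.08 (SE 0.47, adjusted p = 0.167) and 1.43 (SE 0.64, adjusted p = 0.171), and *Themis*-KO replicate 3 was within the WT range for both. *Ccl5*, made mainly by T and NK cells, had a CPM of 0.505, 0.768 and 0.631 in livers labelled WT and 0.722, 0.602 and 0.472 in livers labelled *Themis*-KO. Its groups overlapped, with a log2 fold change of −0.075 (adjusted p = 0.891, SE 0.32) and a 95% interval from −0.82 to 0.67.

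The proximal promoters of *Ccl6* and *Ccl9*, from 250 bases before to 50 bases after the start, are shown since these neighbours are the most abundant CC ligands of this liver, one called and the other not. The sequences are those of RefSeq on GRCm38.p6, written 5′ to 3′ on the strand of the gene, and 24 of the 34 tested members had an entry. Capitals mark GGG, then 2 bases of any kind, then TTTCC, a form of the site of NF-kB, the transcription factor that switches on many inflammatory genes, read on either strand. *Ccl9* held 1 match, on the opposite strand from base 216 to base 225, and *Ccl6* held none. Of all 32851 promoters of this length, 1.63% held this form, and of the 27 promoters of tested members 3 did, those of *Ccl9*, *Cxcl1* and *Cxcl2*.
Ccl6 (chr11:83593038-83593337, reverse strand): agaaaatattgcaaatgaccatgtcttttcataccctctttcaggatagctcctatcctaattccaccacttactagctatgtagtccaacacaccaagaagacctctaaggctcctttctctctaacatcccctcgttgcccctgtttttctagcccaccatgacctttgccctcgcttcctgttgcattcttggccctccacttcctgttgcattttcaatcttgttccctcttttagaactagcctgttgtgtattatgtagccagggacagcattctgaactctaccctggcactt
Ccl9 (chr11:83578587-83578886, reverse strand): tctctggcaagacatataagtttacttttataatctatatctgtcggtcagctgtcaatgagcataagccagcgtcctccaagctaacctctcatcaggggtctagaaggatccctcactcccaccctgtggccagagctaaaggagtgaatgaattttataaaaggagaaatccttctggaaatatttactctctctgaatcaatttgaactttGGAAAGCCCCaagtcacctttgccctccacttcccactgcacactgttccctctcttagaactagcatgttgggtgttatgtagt

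The neutrophil-attracting ligands of CXCR2 varied widely between livers of the same label. *Cxcl1*, the most abundant of them, had a CPM of 30.3, 10.7 and 20.2 in livers labelled WT and 39.8, 37.4 and 14.3 in livers labelled *Themis*-KO. WT replicate 1 was above *Themis*-KO replicate 3, and the log2 fold change of 0.58 (adjusted p = 0.400, SE 0.44) was smaller than the spread between livers. *Cxcl2*, its neighbour on chromosome 5, had a CPM of 1.38, 0.624 and 1.5 in livers labelled WT and 4.08, 2.92 and 1.09 in livers labelled *Themis*-KO. *Themis*-KO replicate 3 was again within the WT range, and the log2 fold change of 1.2 (adjusted p = 0.151, SE 0.50) was not called. *Cxcl5* was rarer but did not overlap. It had a CPM of 0.413, 0.480 and 0.355 in livers labelled WT and 1.44, 0.602 and 0.803 in livers labelled *Themis*-KO, with a log2 fold change of 1.19 (adjusted p = 0.0987, SE 0.41), also not called. *Ppbp*, the platelet ligand of CXCR2, had 8, 7 and 9 counts in livers labelled WT and 14, 11 and 7 in livers labelled *Themis*-KO, and *Cxcl3* had 6 counts in all.

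The promoters of *Cxcl1* and *Cxcl2* are shown with the NF-kB form in capitals, since both genes were highest in *Themis*-KO replicate 1 and low in replicate 3. Each held 2 matches. In *Cxcl1* they lay from base 162 to 171, on the opposite strand, and from base 180 to 189. In *Cxcl2* they lay from base 154 to 163 and from base 173 to 182, both on the strand of the gene, and the first match of *Cxcl2* has the same letters as the second match of *Cxcl1*, GGGAATTTCC. A match describes the letters and is not a measure of binding.
Cxcl1 (chr5:90890995-90891294, forward strand): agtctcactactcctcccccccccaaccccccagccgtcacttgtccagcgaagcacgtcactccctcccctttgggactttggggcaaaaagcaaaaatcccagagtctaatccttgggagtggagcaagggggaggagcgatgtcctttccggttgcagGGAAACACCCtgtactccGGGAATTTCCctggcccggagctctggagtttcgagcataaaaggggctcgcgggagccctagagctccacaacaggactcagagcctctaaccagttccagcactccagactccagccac
Cxcl2 (chr5:90903649-90903948, forward strand): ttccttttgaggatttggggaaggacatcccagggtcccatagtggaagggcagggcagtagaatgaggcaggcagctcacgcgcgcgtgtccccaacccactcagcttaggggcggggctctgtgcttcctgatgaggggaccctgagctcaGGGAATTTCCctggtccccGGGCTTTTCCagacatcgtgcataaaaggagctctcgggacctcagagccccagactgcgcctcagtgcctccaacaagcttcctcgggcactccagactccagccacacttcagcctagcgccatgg

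The interferon-induced ligands of CXCR3, which lie within 44.1 kb of chromosome 5, had log2 fold changes of both signs, none of them called. *Cxcl10* had a CPM of 3.58, 4.41 and 5.09 in livers labelled WT and 13.4, 7.7 and 3.87 in livers labelled *Themis*-KO. *Themis*-KO replicate 1 was highest, and *Themis*-KO replicate 3 lay within the WT range, with a log2 fold change of 0.93 (adjusted p = 0.162, SE 0.40). *Cxcl9* had a CPM of 16.1, 16.0 and 23.1 in livers labelled WT and 23.2, 17.0 and 18.1 in livers labelled *Themis*-KO. The groups overlapped, with a log2 fold change of 0.077 (adjusted p = 0.798, SE 0.18) and a 95% interval from −0.34 to 0.50. *Cxcl11* had a CPM of 5.55, 5.57 and 5.92 in livers labelled WT and 3.95, 4.34 and 4.91 in livers labelled *Themis*-KO. Every liver labelled *Themis*-KO lay below every liver labelled WT, but the log2 fold change of −0.37 (adjusted p = 0.139, SE 0.15) was not called. *Cxcl11* is annotated as a polymorphic pseudogene in GENCODE vM21, since the C57BL/6 reference carries a frameshift in it, and its counts are those of a transcript.

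The promoters of *Cxcl9* and *Cxcl10* are shown because these neighbours had log2 fold changes of 0.077 and 0.93. Neither gene was called, and the difference between them was not tested. Capitals mark GAAA, then 2 bases of any kind, then GAAA, a form of the interferon-stimulated response element that interferon regulatory factors bind, on either strand. *Cxcl10* held 1 match, from base 38 to 47, and *Cxcl9* none. Of all 32851 promoters, 3.44% held this form, and of the 27 promoters of tested members 3, those of *Ccl19*, *Cxcl10* and *Cxcl14*.
Cxcl9 (chr5:92328030-92328329, reverse strand): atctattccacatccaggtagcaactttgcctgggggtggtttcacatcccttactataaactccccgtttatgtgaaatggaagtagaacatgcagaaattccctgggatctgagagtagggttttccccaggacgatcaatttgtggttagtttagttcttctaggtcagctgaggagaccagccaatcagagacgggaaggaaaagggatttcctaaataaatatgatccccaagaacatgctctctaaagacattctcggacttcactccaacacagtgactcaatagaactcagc
Cxcl10 (chr5:92348840-92349139, reverse strand): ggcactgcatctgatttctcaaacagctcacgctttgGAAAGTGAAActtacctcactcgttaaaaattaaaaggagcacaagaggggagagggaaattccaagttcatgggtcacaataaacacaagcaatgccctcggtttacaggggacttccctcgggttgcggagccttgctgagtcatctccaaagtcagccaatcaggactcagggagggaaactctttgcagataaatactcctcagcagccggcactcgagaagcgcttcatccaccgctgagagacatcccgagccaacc

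*Cxcl12*, the retention signal for CXCR4-bearing cells, had the highest CPM of all members in every liver, without regard to transcript length, and was the only member called lower. Its CPM was 275, 239 and 245 in livers labelled WT and 171, 165 and 210 in livers labelled *Themis*-KO. The groups did not overlap, and *Themis*-KO replicate 3 was the liver of its group nearest to WT. The log2 fold change of −0.48 (adjusted p = 0.0462, SE 0.12) was the smallest change among the called members, and it was no longer called with upper quartile scaling (adjusted p = 0.0553) or with scaling by total counts alone (log2 fold change −0.34, adjusted p = 0.0688). *Cxcl12* took 63.4%, 64.1% and 55.9% of the summed CPM of all members in livers labelled WT and 35.7%, 35.6% and 52.3% in livers labelled *Themis*-KO. Without it, the members summed to 159, 134 and 194 CPM in livers labelled WT and 307, 298 and 192 CPM in livers labelled *Themis*-KO, where *Themis*-KO replicate 3 fell within the WT range. *Cxcl13*, the B cell attractant, had between 0 and 17 counts per liver.

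*Cxcl14* and *Pf4* showed the largest rises among the called members. *Cxcl14*, an orphan-like chemokine made by epithelial and stromal cells, had a CPM of 2.39, 2.83 and 4.93 in livers labelled WT and 14.0, 12.3 and 5.29 in livers labelled *Themis*-KO. *Themis*-KO replicates 1 and 2 were far above every liver labelled WT, whereas replicate 3 was close to WT replicate 3. It rose, with a log2 fold change of 1.63 (adjusted p = 0.0463, SE 0.40). *Pf4*, or platelet factor 4, stored in platelets and also transcribed in macrophages, had a CPM of 0.550, 0.432 and 0.552 in livers labelled WT and 1.49, 1.46 and 1.65 in livers labelled *Themis*-KO. The 3 livers labelled *Themis*-KO were close to each other, and *Pf4* rose, with a log2 fold change of 1.57 (adjusted p = 0.0210, SE 0.25), the lowest adjusted p of the family. The megakaryocyte and platelet markers *Itga2b* and *Gp1ba* were not called, with log2 fold changes of 0.14 and −0.39 and adjusted p of 0.677 and 0.656, and the summed CPM of the 6 markers ran from 3.26 to 3.60 in livers labelled WT and from 3.54 to 3.95 in livers labelled *Themis*-KO. *Gp1bb* had at most 1 count in any liver and *Gp6* at most 2. The part of platelets in the *Pf4* result was not tested.

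The promoter of *Cxcl14* is given with its single match to the interferon-stimulated response form, from base 79 to 88, in capitals, as it is the called member with the largest log2 fold change.
Cxcl14 (chr13:56296502-56296801, reverse strand): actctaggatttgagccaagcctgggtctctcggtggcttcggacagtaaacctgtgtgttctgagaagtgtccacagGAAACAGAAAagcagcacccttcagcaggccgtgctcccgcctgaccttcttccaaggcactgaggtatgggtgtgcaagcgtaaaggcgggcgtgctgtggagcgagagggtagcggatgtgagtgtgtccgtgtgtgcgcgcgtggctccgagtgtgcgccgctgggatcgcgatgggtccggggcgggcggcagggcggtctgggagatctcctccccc

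The membrane-anchored ligands, which proteases shed from the cell surface, did not pass the threshold, although the groups did not overlap. *Cxcl16*, the ligand of CXCR6 and a scavenger receptor of macrophages, had a CPM of 11.9, 12.1 and 18.3 in livers labelled WT and 27.7, 24.4 and 18.9 in livers labelled *Themis*-KO. WT replicate 3 and *Themis*-KO replicate 3 lay close together, and the log2 fold change of 0.75 (adjusted p = 0.0595, SE 0.20) missed the threshold. Without WT replicate 3 it was called, with a log2 fold change of 0.98. *Cx3cl1*, or fractalkine, the ligand of CX3CR1, had a CPM of 1.28, 0.960 and 1.26 in livers labelled WT and 2.59, 1.55 and 1.94 in livers labelled *Themis*-KO. It had a log2 fold change of 0.79 (adjusted p = 0.0996, SE 0.27).

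*Ccl24*, an eosinophil attractant that acts through CCR3, had a CPM of 0.872, 1.01 and 1.42 in livers labelled WT and 1.83, 1.72 and 2.17 in livers labelled *Themis*-KO. All livers labelled *Themis*-KO were above the WT range, with a log2 fold change of 0.78 (adjusted p = 0.0938, SE 0.26). *Ccl22*, a CCR4 ligand of dendritic cells and macrophages, had a CPM of 0.505, 0.144 and 0.829 in livers labelled WT and 1.7, 1.98 and 0.425 in livers labelled *Themis*-KO. *Themis*-KO replicate 3 was below WT replicates 1 and 3, with a log2 fold change of 1.44 (adjusted p = 0.180, SE 0.66). *Ccl20*, the CCR6 ligand of epithelial cells, had 0, 0 and 2 counts in livers labelled WT and 7, 4 and 3 in livers labelled *Themis*-KO, too few to test. *Ccl25*, a CCR9 ligand, had a CPM of 7.57, 5.9 and 6.55 in livers labelled WT and 5.52, 4.99 and 5.29 in livers labelled *Themis*-KO. The groups did not overlap, with the livers labelled *Themis*-KO lower, but the log2 fold change of −0.34 (adjusted p = 0.163, SE 0.15) was not called. *Ccl27a*, a CCR10 ligand, overlapped between the groups, with a log2 fold change of −0.33 (adjusted p = 0.279, SE 0.19).

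The remaining ligands were near the detection limit. *Ccl28* had between 3 and 10 counts per liver, *Ccl11* between 0 and 14, and *Xcl1*, a ligand of activated T and NK cells, between 1 and 12. *Ccl17* had 1 count in all and *Cxcl17* had 1. At these counts no difference between the labels was detectable.

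*Ccl19* and the *Ccl21* genes encode the ligands of CCR7, and the mouse reference holds several near-identical copies of them, so the reads of one copy can be assigned to another and the value of a single copy is uncertain. *Ccl19* had a log2 fold change of 0.73 (adjusted p = 0.284, SE 0.43) and *Ccl21a* a log2 fold change of −0.013 (adjusted p = 0.988, SE 0.46), with overlapping groups. Outside *Ccl21a*, the counts of the *Ccl21* copies lay mostly on 1 row in each liver, and on a different one from liver to liver. In WT replicates 1 and 3 this was the *Ccl21b* row ENSMUSG00000095675, with 15 and 12 counts, and in WT replicate 2 and *Themis*-KO replicate 2 it was the *Ccl21b* row ENSMUSG00000096271, with 8 and 23. In *Themis*-KO replicates 1 and 3 it was *Ccl21d*, with 12 and 26 counts. Summed over the 7 rows named *Ccl21*, the counts were 50, 20 and 28 in livers labelled WT and 36, 44 and 54 in livers labelled *Themis*-KO, with overlapping groups.

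**Figure D3:**
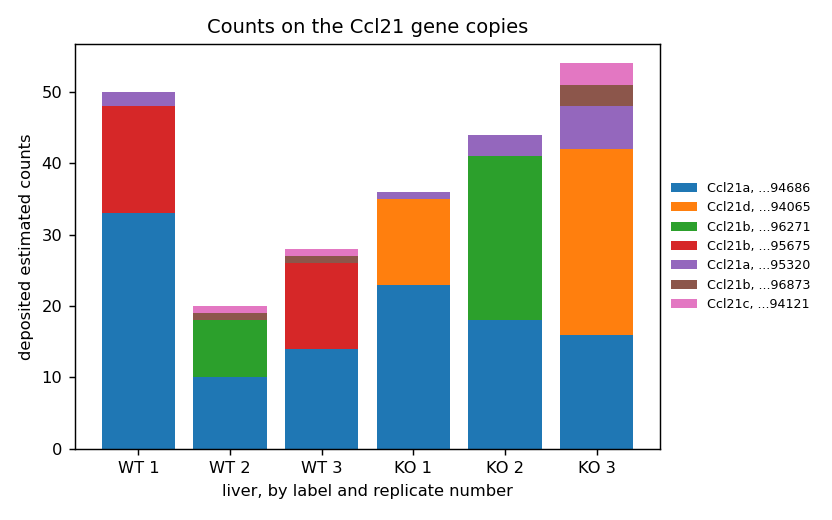
Deposited estimated counts (y axis, from 0) on the 7 rows named *Ccl21* in each liver, stacked by row and named by symbol and the last digits of the gene ID. *Ccl21a* is present in every liver, and a different second row takes most of the rest from liver to liver, while the sums run from 20 to 54.

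Ligands and receptors that bind each other were set side by side. Of 22 pairs in which both genes were tested, both log2 fold changes were positive in 17 and of opposite sign in 5. The pairs reuse 9 receptors and 19 ligands. Every tested receptor had a positive log2 fold change, so these counts give only the sign of the ligand in each pair. Both genes were called in 1 pair, *Cxcl12* and *Cxcr4*, in which the ligand fell and the receptor rose. For CCR2, the called receptor had the uncalled ligands *Ccl2* and *Ccl7*, and for CX3CR1 the called receptor had the uncalled ligand *Cx3cl1*. For CCR1 the order was the other way, with *Ccl6* called and *Ccr1*, *Ccl9* and *Ccl3* not. A call in one gene of a pair and not in the other does not show that they differ, and these differences were not tested.

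The order of the livers was shared by many members. Among the 28 members with a positive log2 fold change, *Themis*-KO replicate 1 lay above every liver labelled WT in 26, replicate 2 in 24 and replicate 3 in 12. Among all tested genes with a positive log2 fold change these shares were 73.7%, 71.1% and 53.7%. *Themis*-KO replicate 3 was the lowest liver of its group in 20 of the 28, against 59.1% of those genes, and WT replicate 3 was the highest of its group in 21, against 46.9%. The members share their 6 libraries, so these counts describe the livers and are not independent of each other. *Ccl2*, *Ccl7*, *Ccl3*, *Ccl4*, *Ccl22*, *Cxcl1*, *Cxcl2*, *Cxcl10*, *Ccr1* and *Cxcr2* all had *Themis*-KO replicate 3 within or below the WT range.

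**Figure D4:**
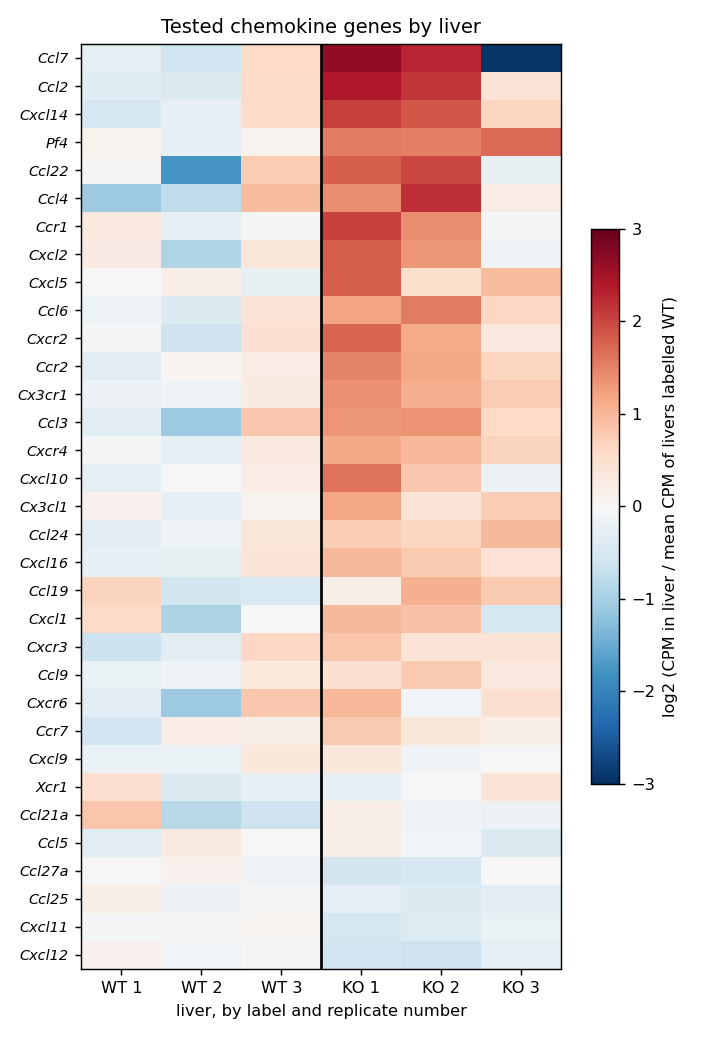
Log2 ratio of the CPM in each liver (columns) to the mean of the 3 livers labelled WT, for 33 tested members (rows, sorted by log2 fold change); red is above that mean and blue below. Most rows in the upper part are red in *Themis*-KO replicates 1 and 2 and paler or blue in replicate 3, and *Ccl7* in replicate 3 is the bluest cell.

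To compare levels between genes, CPM was divided by the length of the annotated exons in kb. Exons of all annotated transcripts of a gene were merged for this length, so a gene with several transcripts can read too low. On this scale *Cxcl12* led in livers labelled WT, with a mean of 31.0 CPM per kb, followed by *Cxcl1* with 10.9, *Ccl6* with 10.4, *Ccl9* with 8.54, *Cxcl9* with 6.11 and *Cxcl16* with 4.66. In livers labelled *Themis*-KO the mean level of *Ccl6*, with 23.3 CPM per kb, lay beside that of *Cxcl12*, with 22.2, and *Ccl2* reached 9.22 from 2.49. Within that group replicate 3 was the lowest liver for *Ccl6*, with 28.5 CPM, and the highest for *Cxcl12*, with 210 CPM. Among the receptors, *Cxcr4* had 1.11 and *Ccr2* 0.941 CPM per kb in livers labelled WT, and 2.14 and 2.08 in livers labelled *Themis*-KO. The neighbours *Cxcl1* and *Ccl6* of the WT order differed by less than the spread of *Cxcl1* between livers.

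Many members lie in groups on the genome, given here in GRCm38 with GENCODE vM21. On chromosome 9, *Ccr9*, *Cxcr6*, *Xcr1*, *Ccr1*, *Ccr3* and *Ccr2* lie from 123678439 to 124113557, with log2 fold changes of the tested genes among them from 0.067 for *Xcr1* to 1.37 for *Ccr1*. The group on chromosome 11 from 83525778 to 83664683 holds *Ccl5*, *Ccl9*, *Ccl6*, *Ccl3* and *Ccl4*, from −0.075 for *Ccl5* to 1.43 for *Ccl4*. *Ccl2*, *Ccl7* and *Ccl11* lie at lower coordinates, from 82035571 to 82062955. On chromosome 5, *Cxcl5*, *Ppbp*, *Pf4*, *Cxcl1* and *Cxcl2* lie from 90759360 to 90905938, with positive log2 fold changes in all 4 tested genes, and *Cxcl9*, *Cxcl10* and *Cxcl11* from 92321347 to 92365485, with both signs. *Cxcl12* lies alone on chromosome 6, from 117168535 to 117181367, on the forward strand, and *Cxcl14* on chromosome 13, from 56288643 to 56296551, on the reverse strand.

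Of 22 listed genes through which chemokine receptors signal or end their signal, all were tested. Of these, 8 were called higher and 0 lower, against 4.97% and 4.14% of all tested genes. Their median log2 fold change was 0.57. In 16 every liver labelled *Themis*-KO lay above every liver labelled WT, against 17.7% of all tested genes. In 0 every such liver lay below, against 16.9%. *Gnai2*, the inhibitory G protein subunit of leukocyte receptors, rose, with a log2 fold change of 0.38 (adjusted p = 0.0335, SE 0.08), and *Gnb1* rose by 0.45 on the log2 scale. *Dock2* and *Elmo1*, which together activate Rac in migrating leukocytes, rose by 0.70 and 0.93, and *Rgs2*, a regulator of G protein signalling, by 1.09. The receptor kinase *Grk5* rose by 0.72 and the arrestins *Arrb1* and *Arrb2* by 0.40 and 0.49. The leukocyte genes *Rac2*, *Fgr* and *Vav1* had log2 fold changes from 0.57 to 0.75 and were not called.

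Of the 6 atypical or scavenging receptors edgeR called 0, while DESeq2 called 1. At an unadjusted p under 0.05, 3 were higher, *Gpr182*, *Ackr1* and *Ccrl2*, against 16.8% of all tested genes. *Gpr182*, a chemokine scavenger of sinusoidal endothelium, had a log2 fold change of 0.39 (adjusted p = 0.0510, SE 0.10), and *Ackr3*, the scavenger of CXCL12, had a log2 fold change of 0.47 (adjusted p = 0.443, SE 0.40). Of 8 chemokine-cleaving proteases 7 were tested. *Mmp14* and *Mmp2* were called higher, with log2 fold changes of 0.72 and 0.66, against 4.97% of all tested genes called higher. *Dpp4*, which trims and inactivates CXCL12 and CXCL10, was lower in every liver labelled *Themis*-KO but not called, with a log2 fold change of −0.43 (adjusted p = 0.0922, SE 0.14). Of 15 listed cytokines and NF-kB pathway genes 12 were tested, and only *Tnfaip3*, a feedback inhibitor of NF-kB, was called by edgeR, with a log2 fold change of 1.04 (adjusted p = 0.0145, SE 0.15). At an unadjusted p under 0.05, 7 of the 12 were higher, against 16.8% of all tested genes. These were *Tnfaip3* and the NF-kB genes *Relb*, *Nfkb1*, *Nfkb2*, *Rela*, *Nfkbia* and *Nfkbiz*, and DESeq2 called 5 higher. *Il1b* and *Tnf*, inducers of chemokine transcription, had adjusted p of 0.290 and 0.467, and *Ifng* had at most 1 count per liver.

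Markers of macrophages, monocytes and neutrophils followed a similar order of livers. The 12 macrophage markers summed to 423, 422 and 641 CPM in livers labelled WT and 794, 961 and 719 CPM in livers labelled *Themis*-KO, and 6 of the 12 were called higher, among them *Cd68*, *Gpnmb* and *Trem2*. The 6 monocyte markers summed to 15.9, 16.3 and 25.65 CPM against 34.5, 33.7 and 25.64 CPM, with 1 called higher, and the 7 neutrophil markers in the table to 6.15, 5.85 and 9.35 CPM against 21.3, 15.2 and 7.60 CPM, with 0 of the 3 tested called by edgeR, all 3 higher at an unadjusted p under 0.05, and 1 called by DESeq2. In all 3 lists *Themis*-KO replicate 3 was the lowest and WT replicate 3 the highest of its group. The 7 Kupffer cell markers, of resident macrophages, ran from 234 to 399 CPM and from 337 to 427 CPM, and edgeR called 0 of them, with 2 higher at an unadjusted p under 0.05 and 1 called by DESeq2. The 10 T cell markers ran from 5.18 to 6.79 CPM and from 4.13 to 8.58 CPM, with *Cd4* called lower and none higher, and the 6 NK cell markers from 0.688 to 1.89 CPM and from 1.68 to 2.55 CPM, with the 1 tested not called. The 6 dendritic cell markers ran from 17.5 to 19.8 CPM and from 26.5 to 28.2 CPM, with *Itgax* called higher, from a mean of 4.24 to 10.8 CPM. Of the 6, 5 had a positive log2 fold change. *Zbtb46* was lower in every liver labelled *Themis*-KO but not called, with a log2 fold change of −0.12 (adjusted p = 0.492, SE 0.11). No gene of these lists was at 0 in all livers, and their part in the chemokine results was not tested. Of all tested genes, edgeR called 4.97% higher and 4.14% lower, and 16.8% were higher at an unadjusted p under 0.05.

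Among the nonleukocyte lists, 5 of 9 hepatic stellate cell markers, 1 of 7 cholangiocyte markers and 1 of 8 endothelial markers were called higher. Of 8 hepatocyte markers 2 were called lower. The shares of all tested genes were 4.97% higher and 4.14% lower. The sums of these 4 lists did not overlap between the labels, with 391 to 440 against 590 to 645 CPM for stellate cells, 167 to 207 against 399 to 629 CPM for cholangiocytes, 204 to 223 against 228 to 251 CPM for endothelium and 56389 to 60433 against 47226 to 51125 CPM for hepatocytes. The 6 B cell markers overlapped, from 4.36 to 10.1 and from 3.96 to 9.78 CPM, and none was called.

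Called members were also expressed per 100 CPM of the summed macrophage markers of the same liver, a scale chosen after the values were seen. On it *Ccl6*, *Ccr2*, *Cxcr4* and *Cxcl14* had log2 ratios of 0.42, 0.38, 0.21 and 0.91 with overlapping groups. *Cx3cr1* and *Pf4* still did not overlap, with 0.36 and 0.84. *Cxcl12* had a log2 ratio of −1.24. Before the division *Cxcl12* was lower, and the macrophage sum higher, in every liver labelled *Themis*-KO. The groups of *Cxcl12* therefore had to stay apart on this scale. No test was made on this scale, and the macrophage genes differ among themselves in their change.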

How the data were processed

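Poly(A) RNA-seq of 6 livers, 3 labelled WT and 3 labelled *Themis*-KO, was used. Per the labels and the study's methods, the authors trimmed reads with cutadapt 2.3, aligned them to GRCm38 with STAR 2.7.8a and estimated counts per gene with RSEM 1.3.3, and the annotation release is not given in the sources used here. The deposited values are RSEM estimated counts, which were already whole numbers, so they carry no further rounding here. RSEM divides reads between similar genes, which touches the near-identical *Ccl19*, *Ccl21* and *Ccl27a* copies.

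Counts were fitted with edgeR 4.0.16 (R 4.3.3, TMM, filterByExpr, quasi-likelihood test, two-sided), with genotype as the only term, and Benjamini-Hochberg adjustment covered 14496 of 25403 genes. The filter removed 10907 genes. DESeq2 1.42.0 was an alternative. The biological coefficient of variation was 0.157. The fit was tested on simulated data. Gene positions were read from GENCODE vM21 and promoters from RefSeq on GRCm38.p6.

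Each library was counted as 1 replicate. No pair of livers agreed within sampling noise (chi-square per degree of freedom at least 9.12). Named genes were all members called, all members whose groups did not overlap, their ligand or receptor partners, and called genes of 4 lists of chemokine regulators. Other members were given by range or count. Counts cover all tested members, and some genes are not reported here. The members, the regulator lists and the 13 cell type marker lists were chosen with earlier results of these data known. Alternatives were 3 other scalings, 2 other filters, DESeq2, the replicate number as a block, leaving out each liver, a mitochondrial covariate and other thresholds.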

Additional observations from a re-analysis of the deposited data

How the results depend on the processing

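The 7 members called higher and 1 called lower became 12 and 2 with no filter on low counts, 11 higher with DESeq2 and 13 higher at an adjusted p under 0.1, while the count lower was 0 with upper quartile scaling, with total counts alone and with at least 2-fold as well. With no filter, the added member lower was *Ccl21b*, and *Ccl21d* was among those higher. Both are *Ccl21* copies, for which the value of a single copy is uncertain. With the mitochondrial type, the split by *Gm28438*, as a covariate, the label effect rests on WT replicate 3 alone, so calls from that fit are not counted. Leaving out 1 liver gave 0 to 16 higher and 0 to 2 lower. Over the whole table, 721 genes higher and 600 lower became 1449 and 387 with total counts alone and 1212 and 967 with no filter. They became 1279 and 1090 with DESeq2, and 8 to 2228 and 12 to 2039 without 1 liver. The cause of these shifts was not tested.

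The paper describes the sequenced livers as pairs, but does not say whether the replicate numbers mark them. Deviations of same-numbered livers had a mean correlation of −0.132 against 0.066 for others. Deviations within a label cancel out, so these means are tied to each other, and they rest on few livers. The comparison therefore cannot decide whether livers of the same number were paired. With the replicate block 0 members were called higher and 0 lower, and 17 and 45 genes over the whole table.

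The sign changed for 6 members, none of them called. *Ccl21a* had a log2 fold change of 0.13 with total counts alone, 0.093 with the replicate block, 0.59 with the mitochondrial covariate and −0.29 to 0.68 without 1 liver. *Ccl5* had 0.063 with total counts alone and −0.24 to 0.072 without 1 liver. *Cxcl9* had −0.25 with the mitochondrial covariate and −0.075 to 0.27 without 1 liver, and *Xcr1* had −0.13 to 0.39 without 1 liver. *Cxcr3* and *Cxcr6* had −0.063 and −0.27 with the mitochondrial covariate. Depth limited the 16 reported members with too few counts to test, for which differences of a few counts cannot be told from counting error.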
